A study of Mus musculus with 4 samples.

Results

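Toll-like receptors are the membrane proteins with which dendritic cells (DC) recognise microbial lipids and nucleic acids, and 8 genes of this system were followed here in mature DC lacking Mettl3. They were the receptor genes Tlr1, Tlr2, Tlr6, Tlr8, Tlr9 and Tlr13, the receptor relative Cd180, and Unc93b1, the escort protein of the endosomal receptors. The genes were taken by symbol, without reference to their values, from 2 tables that listed 23690 and 11835 genes. All 8 were found in both tables, and all 8 were among the 11757 genes that could be compared over both. They were chosen with earlier results of these data known.

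Bone marrow of C57BL/6 mice aged 6 weeks was grown in IL-4 (1 ng/ml) and GM-CSF (10 ng/ml). Cells carrying CD11c were selected with magnetic beads on day 5 and stimulated with LPS, the bacterial ligand of TLR4, at 100 ng/ml for 24 h, so that every library came from LPS-matured BMDC (maDC) and no unstimulated cells were compared. Mettl3KO cells (n = 2 libraries) came from mice in which the floxed Mettl3 gene is deleted by a CD11c-Cre transgene, and Mettl3WT cells (n = 2) came from littermates, so that the transgene and the deletion cannot be told apart. One library of each genotype formed a pair, each pair had its own table of RPKM values (reads scaled to the length of the gene and to the number of mapped reads), and the tables were normalized separately.

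Mettl3 is the catalytic subunit of the enzyme complex that writes N6-methyladenosine into mRNA. Of the receptors described here, TLR1, TLR2 and TLR6 work at the cell surface, where TLR2 pairs with TLR1 to bind triacylated and with TLR6 to bind diacylated bacterial lipopeptides, and CD180 is a surface relative that has no signalling domain of the Toll-like kind and is held by the secreted protein MD-1, the product of Ly86. TLR8, TLR9 and TLR13 work inside endosomes on nucleic acids, and they reach that compartment from the endoplasmic reticulum with UNC93B1.

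Tlr1 and Tlr6 lie next to each other on the minus strand of chromosome 5 and are close copies over part of their coding sequence, which bears on how far their values can be separated. In the GENCODE vM21 transcripts, the longest identical stretch was 229 coding bases. It ran from base 1939 to base 2167 of a Tlr1 transcript of 3025 bases, in exon 4 of 4 at chr5:64925537-64925765 of GRCm38 (mm10), and from base 1652 to base 1880 of a Tlr6 transcript of 3677 bases, in exon 2 of 2 at chr5:64953828-64954056. It is printed because a read inside it belongs to either gene equally.
Tlr1 and Tlr6, shared coding stretch: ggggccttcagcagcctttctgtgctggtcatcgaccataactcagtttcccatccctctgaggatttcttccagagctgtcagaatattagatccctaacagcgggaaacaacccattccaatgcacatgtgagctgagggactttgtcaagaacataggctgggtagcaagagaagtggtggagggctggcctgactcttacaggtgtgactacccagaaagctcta
Of all 50-base windows, 454 of 2976 in Tlr1 (15.3%) and 454 of 3628 in Tlr6 (12.5%) were found in both transcripts. Among the other pairs of the 8 genes the longest identical stretch was 15 bases, between Tlr8 and Tlr9. How the authors' counting divided reads of the shared stretch is not given in the sources used here, so the Tlr1 and Tlr6 values are uncertain to that degree.

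The RefSeq promoters on GRCm38.p6, from 250 bases before to 50 bases after the start, were found for 7 of the 8 genes (all but Unc93b1). The 3 shown are those of the genes that were lower in Mettl3KO cells of both pairs with the largest pair 2 differences (Tlr1 and Cd180) and of Tlr8, which was higher in both pairs. Capitals mark GGAAGT, the core that ETS factors such as PU.1 bind, read on either strand, a motif picked after the sequences had been seen.
Tlr1, chr5:64933509-64933808, minus strand: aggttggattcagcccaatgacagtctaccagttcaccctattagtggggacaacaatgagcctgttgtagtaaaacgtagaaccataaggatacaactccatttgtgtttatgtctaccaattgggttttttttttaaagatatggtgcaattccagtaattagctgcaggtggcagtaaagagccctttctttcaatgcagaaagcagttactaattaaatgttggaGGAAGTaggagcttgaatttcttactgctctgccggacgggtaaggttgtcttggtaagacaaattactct
Cd180, chr13:102693308-102693607, plus strand: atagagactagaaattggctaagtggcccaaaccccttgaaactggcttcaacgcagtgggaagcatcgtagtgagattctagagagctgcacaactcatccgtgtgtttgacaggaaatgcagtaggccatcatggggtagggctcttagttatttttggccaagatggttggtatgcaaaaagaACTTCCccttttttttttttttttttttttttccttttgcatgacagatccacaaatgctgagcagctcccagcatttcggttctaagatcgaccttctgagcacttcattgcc
Tlr8, chrX:167264280-167264579, minus strand: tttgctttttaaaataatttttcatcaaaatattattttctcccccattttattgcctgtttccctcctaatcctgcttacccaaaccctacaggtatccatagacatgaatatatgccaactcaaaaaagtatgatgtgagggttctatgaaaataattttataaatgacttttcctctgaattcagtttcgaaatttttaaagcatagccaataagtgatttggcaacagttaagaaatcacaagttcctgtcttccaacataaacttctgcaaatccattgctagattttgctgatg
GGAAGT stood in 5 of the 7 promoters, namely those of Tlr1, Tlr2, Tlr6, Cd180 and Tlr9, and in 23.8% of all 32851 promoters. Since it was picked from these sequences, the shares are no test of enrichment. Of the genes with it, Tlr1, Tlr6 and Cd180 were lower in both pairs, Tlr2 was higher in both, and Tlr9 went in opposite directions. Of those without it, Tlr8 was higher in both pairs and Tlr13 went in opposite directions. Any relation of the motif to these directions was not tested. The AP-1 motif TGANTCA stood only in that of Tlr9 among the 7 (7.81% of all promoters), and the STAT motif TTCNNNGAA in those of Tlr6 and Tlr8 (8.30%). The NF-kB motif stood in that of Tlr2 alone among the 7 (8.46%). All motifs were read on both strands, and a match describes letters only. The Tlr6 start in RefSeq lies 11092 bases from the start in the authors' files.

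Mettl3 itself was at 5.31 and 4.59 RPKM in Mettl3WT and Mettl3KO cells of the first pair and at 5.10 and 4.39 RPKM in those of the second, a value over the whole gene that does not single out the deleted exons. Low values came out as whole read numbers at depths of about 35550000 and 33620000 reads in Mettl3WT and Mettl3KO cells of the first pair, and about 32530000 and 31160000 reads in those of the second. The dendritic cell markers were present in every library (8 of 8 listed, summed 5728, 4796, 9083 and 5594 RPKM in Mettl3WT and Mettl3KO cells of pair 1 and then pair 2). Of 11757 genes, limma with the pair as a block called 5 (2 higher and 3 lower in Mettl3KO cells) at an adjusted p below 0.05, which is 0.0425% of those tested. Exact permutation tests of a single value could not go below a two-sided p of 0.333 with 2 libraries against 2, or 0.5 with 2 pairs. Beyond the littermate pairs the sources do not say how animals and cultures were divided over libraries, so p-values measure only the spread between these libraries, which may be technical. The limma fit also pools that spread over genes, with a prior of 8.683 degrees of freedom, while the 2 pairs leave 1 for the gene itself. Each SE and p-value below is thus mostly the pooled spread and not the gene's own.

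Expression of all 8 genes was detected in all 4 libraries, from 2.22 to 241 RPKM (the plot of RPKM by library). Unc93b1 was the highest of the 8 in every library, followed by Tlr2 and Tlr13, and Cd180 came next. The ranges over the 4 libraries did not overlap between Unc93b1 (144 to 241 RPKM) and Tlr2 (44.7 to 61.7), nor between Tlr2 and Tlr13 (29.9 to 40.2). They overlapped between every further pair of neighbours in the order Tlr13, Cd180 (16.9 to 31.1), Tlr1 (10.01 to 24.2), Tlr8 (10.99 to 15.3), Tlr9 (2.22 to 16.3) and Tlr6 (3.95 to 4.94) over the 4 libraries. Within each library, however, Tlr13 was above Cd180 and Cd180 above Tlr1, whereas the order of Tlr1 and Tlr8, of Tlr8 and Tlr9, and of Tlr9 and Tlr6 was not the same in all 4. These are levels per length on the RPKM scale, set across tables that were normalized separately.

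**Figure D1:**
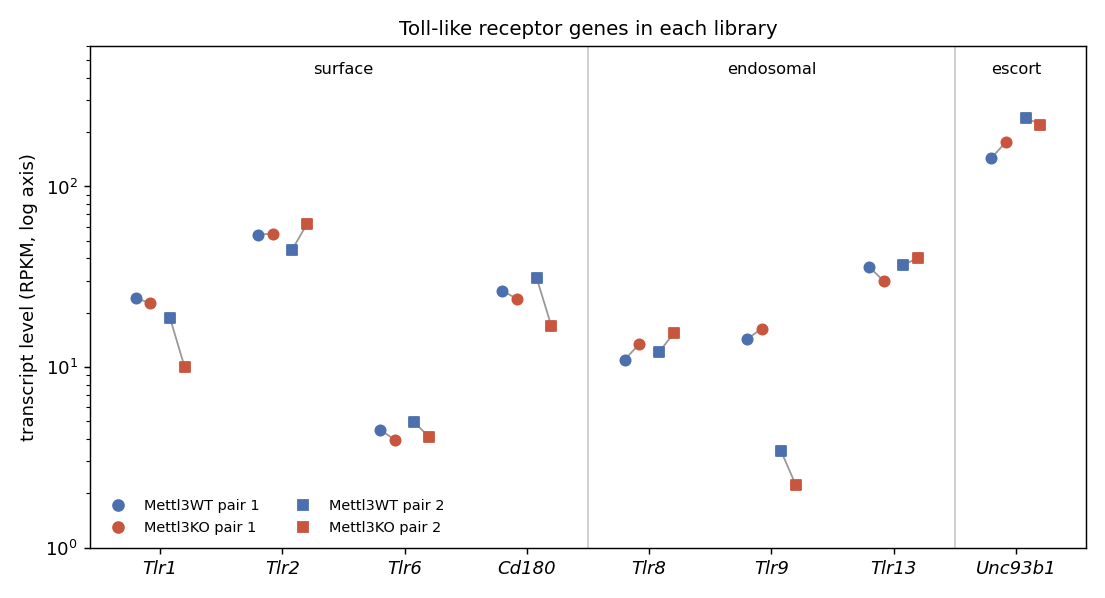
RPKM (log axis) of the 8 genes in the 4 libraries, with Mettl3WT and Mettl3KO cells of each pair as separate points. Unc93b1 sits above all others at 144 to 241 RPKM, and Tlr9 has the widest spread, from 2.22 to 16.3 RPKM.

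No member passed the limma test (0 of 8, adjusted p from 0.932 to 0.996), and none had an unadjusted p under 0.05, against 654 of 11757 genes. Mettl3KO values were lower in both pairs for 3 members (Tlr1, Tlr6 and Cd180), against 30.8% of all genes tested, and higher in both for 2 (Tlr2 and Tlr8), against 19.1%. Tlr9, Tlr13 and Unc93b1 went in opposite directions in the 2 pairs. Both Mettl3KO libraries lay below both Mettl3WT libraries for 2 members (Tlr6 and Cd180), where 10.2% of all genes did, and above both for 2 (Tlr2 and Tlr8), where 4.7% did. No member differed by at least 1.5-fold on the RPKM + 1 scale in the same direction in both pairs, where 0.476% of genes were lower and 0.731% higher by that much. In pair 1 alone no member reached 1.5-fold (1.86% of genes lower, 2.57% higher), and in pair 2 alone Tlr1 and Cd180 were lower by at least that (10.9% of genes) and none was higher (6.46%). Log2 ratios below are log2 of (RPKM + 1) in Mettl3KO over Mettl3WT cells, which understates differences of low genes, and in bulk RNA fewer cells of a type and less RNA per cell cannot be told apart.

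**Figure D2:**
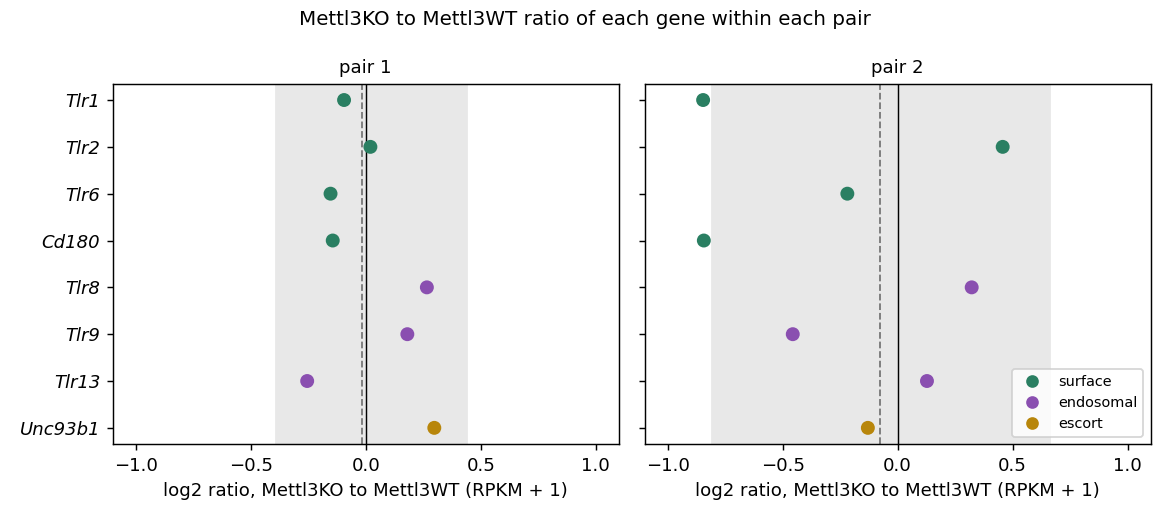
Log2 ratio of RPKM + 1, Mettl3KO over Mettl3WT, of the 8 genes in pair 1 and pair 2, with a grey band from the 5th to the 95th percentile and a dashed line at the median of all 11757 genes tested in each pair. Only Tlr1 (-0.85) and Cd180 (-0.84) in pair 2 lie outside that range, which runs from -0.81 to 0.66 there.

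Among the surface receptors, Tlr2, the shared subunit of the lipopeptide receptors (chr3:83836272-83841824), was at 54.1 and 54.9 RPKM in Mettl3WT and Mettl3KO cells of pair 1, and at 44.7 and 61.7 RPKM in those of pair 2. Both Mettl3KO libraries were above both Mettl3WT libraries although in pair 1 the difference was within counting error, the Mettl3KO level being 101% of Mettl3WT (95% exact interval for counting error only, 97.8 to 105%). In pair 2 it was 138% (133 to 144%). The fitted log2 change was 0.24 (SE 0.23, n = 2 pairs, limma adjusted p = 0.994).

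Tlr1, which forms the triacyl lipopeptide receptor with TLR2 (chr5:64924680-64933589), was at 24.2 RPKM in Mettl3WT and 22.6 RPKM in Mettl3KO cells of pair 1, and at 18.8 and 10.01 RPKM in those of pair 2. The Mettl3KO library was the lower one of each pair, but the genotypes overlapped because the pair 1 Mettl3KO value exceeded the pair 2 Mettl3WT value. Mettl3KO levels were 93.4% of Mettl3WT in pair 1 (88.3 to 98.9%, counting error only) and 53.3% in pair 2 (49.3 to 57.7%). The log2 ratios of -0.09 and -0.85 stood at the 34.6th and the 4.38th percentile of all genes tested, and the fitted change of -0.47 (SE 0.25, n = 2 pairs) did not pass (limma adjusted p = 0.967).

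Tlr6, the partner of TLR2 for diacylated lipopeptides (chr5:64952030-64971140), had the narrowest range of the receptors, at 4.51 and 3.95 RPKM in Mettl3WT and Mettl3KO cells of pair 1 and 4.94 and 4.10 RPKM in those of pair 2. Both Mettl3KO libraries were below both Mettl3WT libraries, but reads of the stretch shared with Tlr1 may be part of these values. The log2 ratios were -0.15 and -0.22, at the 24.6th and 35.7th percentile of all genes, and the fitted change was -0.19 (SE 0.21, n = 2 pairs, limma adjusted p = 0.994).

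Cd180 (chr13:102693558-102706631) encodes a surface protein that tempers TLR4 responses in mouse DC. It was at 26.4 and 23.8 RPKM in Mettl3WT and Mettl3KO cells of pair 1, and at 31.1 and 16.9 RPKM in those of pair 2. The Mettl3KO libraries were the 2 lowest, with no overlap between genotypes, and the pair 2 gap was the wider one. Mettl3KO levels were 90.2% of Mettl3WT in pair 1 (85.1 to 95.6%, counting error only) and 54.4% in pair 2 (50.9 to 58.0%), with log2 ratios at percentiles 26.1 and 4.44 of all genes tested. Its fitted change of -0.49 (SE 0.25, n = 2 pairs) had the smallest adjusted p of the 8 genes by limma, 0.932, with an unadjusted p of 0.0736.

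Among the endosomal receptors, Tlr8 on chromosome X (chrX:167241123-167264329), whose human counterpart senses single-stranded RNA, was at 10.99 and 13.4 RPKM in Mettl3WT and Mettl3KO cells of pair 1, and at 12.1 and 15.3 RPKM in those of pair 2. Both Mettl3KO libraries were above both Mettl3WT libraries, and the 2 pairs gave nearly the same ratio. Mettl3KO levels were 122% (113 to 131%, counting error only) and 127% (118 to 137%) of Mettl3WT, at the 88.0th and 84.4th percentile of all genes. The fitted change of 0.29 (SE 0.22, n = 2 pairs) did not pass (limma adjusted p = 0.994).

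Tlr9, the receptor for unmethylated CpG DNA (chr9:106222598-106226876), was at 14.3 and 16.3 RPKM in Mettl3WT and Mettl3KO cells of pair 1, but at only 3.42 and 2.22 RPKM in those of pair 2. The pairs separated the libraries and the genotypes did not. The Mettl3WT level of pair 1 was 4.17-fold that of pair 2, while Mettl3KO levels were 114% (107 to 122%, counting error only) of Mettl3WT in pair 1 and 65.0% (55.1 to 76.6%) in pair 2. The values corresponded to about 241 reads in the lowest library and 1906 in the highest. The fitted change was -0.14 (SE 0.23, n = 2 pairs, limma adjusted p = 0.994), and the log2 ratios had opposite signs, 0.18 and -0.46.

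Tlr13, the mouse receptor for bacterial ribosomal RNA, also on chromosome X (chrX:106143275-106160493), was at 35.9 and 29.9 RPKM in Mettl3WT and Mettl3KO cells of pair 1, and at 36.7 and 40.2 RPKM in those of pair 2. The Mettl3WT libraries were close to each other, with one Mettl3KO library below and the other above them. Mettl3KO levels were 83.4% (80.0 to 86.9%, counting error only) and 110% (105 to 114%) of Mettl3WT, and the fitted change was -0.06 (SE 0.23, n = 2 pairs, limma adjusted p = 0.996).

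Unc93b1 (chr19:3935186-3949340), the escort of the endosomal receptors, was at 144 and 177 RPKM in Mettl3WT and Mettl3KO cells of pair 1, and at 241 and 220.03 RPKM in those of pair 2. Both pair 2 libraries were above both pair 1 libraries, and the genotypes overlapped. Mettl3KO levels were 123% of Mettl3WT in pair 1 and 91.4% in pair 2, and the fitted change was 0.08 (SE 0.24, n = 2 pairs, limma adjusted p = 0.996).

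Set side by side, the surface receptors had a lower median log2 ratio than the endosomal ones in each pair. For Tlr1, Tlr2, Tlr6 and Cd180 it was -0.12 in pair 1 and -0.53 in pair 2, and for Tlr8, Tlr9 and Tlr13 it was 0.18 and 0.13, a gap of -0.30 and -0.66. Over all genes tested the medians were -0.02 and -0.08, with SDs of 0.29 and 0.49 across genes. The members crossed that division, since Tlr2 at the surface was higher in both pairs, and Tlr9 and Tlr13 inside the cell were each lower in 1 pair. The medians of the fitted changes were -0.33 at the surface and -0.06 in the endosome, so the endosomal median had the other sign when the pairs were fitted together. The summed RPKM, which the most abundant genes dominate, was 109 and 105 for the surface receptors in Mettl3WT and Mettl3KO cells of pair 1 and 99.6 and 92.8 in those of pair 2, and 61.1 and 59.6 and then 52.2 and 57.8 for the endosomal receptors. The endosomal sum was thus lower in Mettl3KO cells of pair 1, where the median ratio was positive, and higher in those of pair 2. These are descriptions of 4 and 3 genes with no test.

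Because TLR2 needs TLR1 or TLR6, and CD180 needs MD-1, the levels were also set against each other within a library (the plot of partner ratios). Tlr1 stood at 0.447 and 0.411 of the Tlr2 RPKM in Mettl3WT and Mettl3KO cells of pair 1, and at 0.420 and 0.162 in those of pair 2, so that 3 libraries were alike and the pair 2 Mettl3KO library was low. Tlr6 stood at 0.0833 and 0.0720 of Tlr2 in pair 1 and at 0.110 and 0.0665 in pair 2, the lower ratio again being that of Mettl3KO cells in each pair. Tlr1 was 5.36 and 5.71 times the RPKM of Tlr6 in pair 1, and 3.80 and 2.44 times in pair 2.

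The Cd180 partner gene Ly86, named for that pairing and outside the rule for named pathway genes, was at 31.3 RPKM in both libraries of pair 1 and at 9.29 and 16.1 RPKM in Mettl3WT and Mettl3KO cells of pair 2. The ratio of Cd180 to Ly86 was therefore 0.846 and 0.763 in pair 1, and 3.35 and 1.05 in pair 2, with the Mettl3KO library the lower of each pair and the pairs further apart than the genotypes in pair 1. Tlr9 stood at 0.0993 and 0.0922 of Unc93b1 in pair 1 and at 0.0142 and 0.0101 in pair 2. The ratio of Tlr9 to Tlr13 was 0.398 and 0.545 in pair 1 and 0.0930 and 0.0552 in pair 2, so that within the endosomal group the balance differed mainly between pairs.

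**Figure D3:**
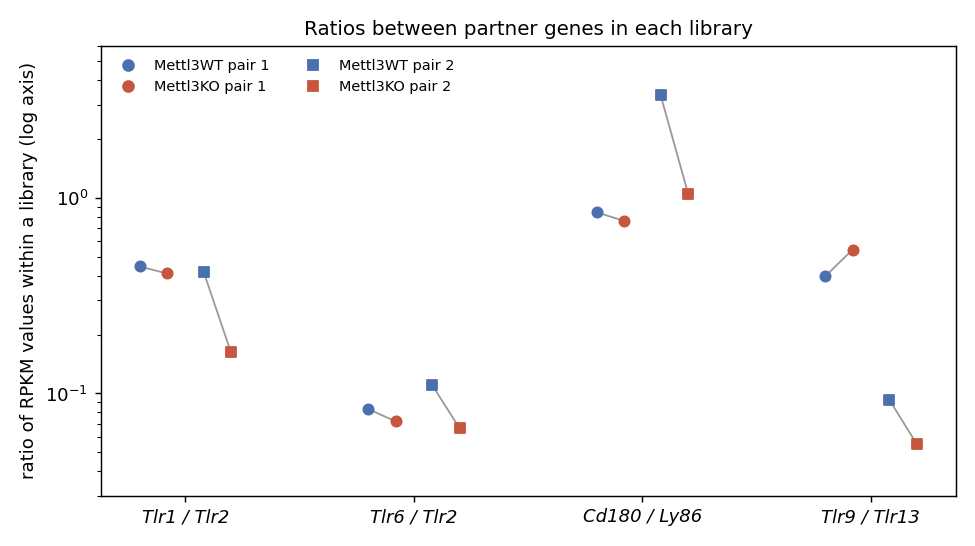
Ratio of RPKM between partner genes within each of the 4 libraries (log axis), Mettl3WT and Mettl3KO cells of each pair as separate points. Tlr1 over Tlr2 lies between 0.411 and 0.447 in 3 libraries and at 0.162 in the pair 2 Mettl3KO library, while Tlr9 over Tlr13 separates the pairs (0.398 and 0.545 against 0.0930 and 0.0552).

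The genes that fold, move, cut and supply these receptors were read from a list of 32, of which 30 were tested. None passed the limma test (0 of 30), and 1, Ctsk, had an unadjusted p under 0.05, against 654 of 11757 genes. In Mettl3KO cells of both pairs 7 were lower, against 30.8% of all genes tested, and 7 higher, against 19.1%. The other 16 went in opposite directions. None was at least 1.5-fold in the same direction in both pairs (0.476% of all genes lower, 0.731% higher). The same shares apply to the counts by role below. The list's median log2 ratio was -0.03 in pair 1 and 0.15 in pair 2, beside -0.02 and -0.08 over all genes tested. The 2 most abundant genes of each role are given here (the plot of pair 1 against pair 2 ratios).

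Of 4 co-receptor genes tested, 1 was higher in both pairs (Ly86, which was nearly level in pair 1) and none lower. Cd14, which hands lipopeptides and LPS to the receptors, was at 353 and 239 RPKM in Mettl3WT and Mettl3KO cells of pair 1 and at 622 and 1047 RPKM in those of pair 2. Cd36, a scavenger receptor that aids TLR2 with TLR6, was at 25.2 and 15.6 RPKM in pair 1 and at 40.4 and 49.9 RPKM in pair 2. Both genes were lower in Mettl3KO cells of pair 1 and higher in those of pair 2.

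All 3 chaperone genes went in opposite directions between pairs. Hsp90b1, the endoplasmic reticulum chaperone gp96 on which most Toll-like receptors depend, was at 157 and 139 RPKM in pair 1 and at 118 and 136 RPKM in pair 2. Its cofactor Cnpy3 was at 95.03 and 95.2 RPKM in pair 1 and at 118 and 71.2 RPKM in pair 2. The pair 2 Mettl3KO library was the low one for Cnpy3.

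Of 13 traffic genes, 6 were lower and 2 higher in both pairs. Ap3b1, a subunit of the adaptor that sorts TLR9 into lysosome-related endosomes, was at 66.5 and 57.9 RPKM in Mettl3WT and Mettl3KO cells of pair 1 and at 46.8 and 26.0 RPKM in those of pair 2, with both Mettl3KO values the lower of their pair. Sdcbp, the gene of syntenin, an UNC93B1 binding protein, was at 104 and 118 RPKM in pair 1 and at 105 and 115 RPKM in pair 2. Both Mettl3KO values were above both Mettl3WT values, as for 4.7% of all genes tested.

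Of 5 endosomal protease genes, which cut the endosomal receptors into their active form, 2 were higher in both pairs and none lower in both. Ctss was at 743 and 806 RPKM in pair 1 and at 1638 and 3373 RPKM in pair 2, and Ctsb at 369 and 398 RPKM and then 542 and 609 RPKM. Both were higher in Mettl3KO cells of each pair and higher in pair 2 than in pair 1. Ctsk, named after its values were seen, was at 3.19 and 3.15 RPKM in pair 1 and at 7.29 and 28.4 RPKM in pair 2, so that its difference was in 1 pair only.

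Of 5 tested genes for nucleases that make or destroy the ligands, 1 was lower and 2 were higher in both pairs. Rnaset2a, a lysosomal ribonuclease gene with a near-identical neighbouring copy whose reads may be shared, was at 57.9 and 105 RPKM in pair 1 and at 148 and 168 RPKM in pair 2. Pld4, an exonuclease for single-stranded nucleic acids, was at 50.8 and 61.7 RPKM in pair 1 and at 147 and 135 RPKM in pair 2. For both genes the pair 2 libraries were above the pair 1 libraries of either genotype, as they were for Unc93b1.

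**Figure D4:**
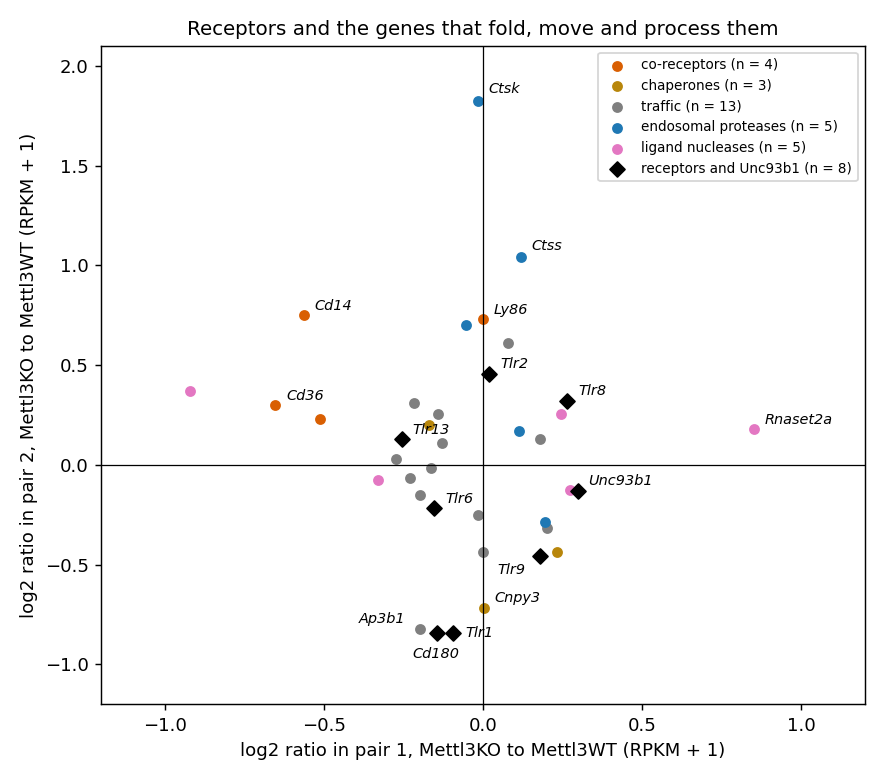
Log2 ratio of RPKM + 1 (Mettl3KO over Mettl3WT) in pair 1 on the horizontal axis and in pair 2 on the vertical axis, for the 8 members and the 30 tested pathway genes. Of the members, 3 lie where both ratios are negative and 2 where both are positive, and of the pathway genes 7 lie in each of these corners. Over all genes tested, 30.8% lie in the negative corner and 19.1% in the positive one.

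Of the other Toll-like receptor genes, Tlr4, Tlr7 and Tlr12 were tested, and none passed (limma adjusted p = 0.994 for each). Tlr4 was at 5.65 and 5.02 RPKM in Mettl3WT and Mettl3KO cells of pair 1 and at 6.21 and 12.5 RPKM in those of pair 2. Tlr7, the relative of Tlr8, was at 15.5 and 18.4 RPKM in pair 1 and at 14.3 and 21.0 RPKM in pair 2. The Tlr8 to Tlr7 ratio was 0.710 and 0.727 in pair 1 and 0.842 and 0.730 in pair 2. Both genes had both Mettl3KO libraries above both Mettl3WT libraries, as did 4.7% of all genes tested. Tlr12 was at 13.4 and 11.5 RPKM and then 5.09 and 3.40 RPKM, with pair 2 below pair 1 as for Tlr9. Tlr3 (1.56 and 2.91 RPKM), Tlr5 (0.0973 and 0.0533) and Tlr11 (0.903 and 0.432) were listed in the first table only, since the second listed only genes above 1 RPKM in both of its libraries.

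Several measures moved with these values, and their part in the results was not tested. In pair 1 the genotypes differed in sex-linked transcripts. Xist was at 0.0502 RPKM in Mettl3WT and 37.8 RPKM in Mettl3KO cells and Tsix at 0 and 2.51, while the Y-linked genes Ddx3y (29.1 and 0.0243), Eif2s3y (19.8 and 0.0408), Kdm5d (4.35 and 0.00713) and Uty (3.55 and 0) had the opposite pattern. The second table listed none of the 6, so each was at or below 1 RPKM in at least 1 library of pair 2, as in pair 1. At the pair 1 levels, libraries of like sex would have listed Xist or Y-linked genes such as Ddx3y. Pair 2 thus cannot be taken as matched for sex. Tlr8 and Tlr13 lie on chromosome X, where the median log2 ratio over 329 genes was -0.09 in pair 1 and 0.02 in pair 2, against -0.01 and -0.08 over 11406 autosomal genes. Tlr8 was higher in Mettl3KO cells in each pair, and Tlr13 was not.

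Of the 8 dendritic cell markers, 6 were lower and none higher in Mettl3KO cells of both pairs (median log2 ratios -0.20 and -0.58). Tlr1, Tlr6 and Cd180 were also lower in both. So were 30.8% of all genes tested, with 19.1% higher, and 3 of 5 housekeeping genes, with 1 higher. Itgax, the gene of CD11c, went in opposite directions, at 12.6, 9.66, 17.2 and 51.0 RPKM in Mettl3WT and Mettl3KO cells of pair 1 and then pair 2. Of 8 monocyte and macrophage markers in both tables, 5 were higher and 1 lower in both pairs (medians 0.14 and 0.48), and their sum was 3964, 4991, 10659 and 15110 RPKM in the same order, higher in both libraries of pair 2, as was Unc93b1. The 5 granulocyte markers in both tables summed to 4180, 7049, 5799 and 3741 RPKM, with medians of 0.99 and -2.98. The first table listed 10. Those missing from the second were Ngp (193 and 685 RPKM in Mettl3WT and Mettl3KO cells of pair 1), Ltf (26.4 and 115), Retnlg (5.32 and 14.6), Cxcr2 (3.71 and 10.7) and Mpo (0.298 and 0.463). Each of these was thus at or below 1 RPKM in at least 1 library of pair 2, and which library is not known. The 5 in both tables were not uniform in the pair 2 Mettl3KO library, which held the lowest values of Tlr1, Cd180 and Tlr9. S100a9 (1237, 2843, 1844 and 2.57 RPKM), S100a8 (891, 1768, 1129 and 143) and Camp (27.3, 84.4, 58.4 and 4.33) were lowest there. Lcn2 (1970.4, 2319, 2687 and 3510 RPKM), which made up most of the sum in that library only, and Mmp8 (54.1, 34.7, 80.1 and 81.1) were highest there.

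Plasmacytoid DC and B cells also express Tlr9, and the part of such cells in its values was not tested. In pair 1 the plasmacytoid markers ranged widely. Siglech was at 0 and 0.0946 RPKM and Ccr9 at 0.346 and 0.248 RPKM in Mettl3WT and Mettl3KO cells, Cox6a2 at 0.171 and 0.269, Pacsin1 at 1.58 and 1.26, and Tcf4 at 3.99 and 4.48. Of 7 plasmacytoid markers 6 were in the first table and 2 (Tcf4 and Irf8) in both. Irf8, a factor of several DC lineages, was at 286 and 310.5 RPKM in pair 1 and at 226 and 131 RPKM in pair 2. The 6 of 8 B cell markers in the first table summed to 3.88 and 5.09 RPKM, and none was in the second. Among them Ebf1 was at 0 and 0.0989 RPKM, Pax5 at 0.0140 and 0.0477 RPKM, and Ighm, the highest, at 2.36 and 3.20 RPKM. Of 5 housekeeping genes, 1 was higher and 3 were lower in Mettl3KO cells of both pairs (19.1% and 30.8% of all genes tested), with median log2 ratios of -0.09 and -0.24.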

How the data were processed

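RNA-seq of Mettl3KO and Mettl3WT maDC (2 libraries each) was used. Per the submitters' processing notes, bcl2fastq, TopHat2 2.0.14 and Cuffnorm were used with mm10. The deposited RPKM values were made by the authors, 1 table a pair. Annotation, strand setting and the treatment of multi-mapping reads: not given in the sources used here. Columns with the authors' p-value and log2 fold change, deposited in the same tables, were not used. Tables were joined by gene (11822 genes). In the deposited tables, first and second, symbols had been turned into dates for 22 and 16 genes.

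Here log2(RPKM + 1) of the 11757 genes that averaged 1 RPKM or more was fitted with limma 3.58.1 (R 4.3.3), with an intensity trend and the pair as a block, and p was adjusted by Benjamini-Hochberg over all of them. The test was checked on simulated data. The study's methods give 2 littermate pairs. Deviations of libraries of 1 number from their group means correlated (r = 0.697 over 11757 genes). Such libraries also share a separately normalized table, so the correlation cannot show that they came from littermates. Depth was read from low values, 98.0 to 100% of which (120 to 258 genes a library) came within 0.1 reads of a whole number, where chance gives 20%. It is an estimate and gives intervals for counting error only. Whether reads or read pairs were counted: not given in the sources used here.

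Members, lists and tests were chosen with earlier results of these data known. All 8 members were named, and of the pathway list every gene at least 1.5-fold in both pairs (there was none) and otherwise the 2 of each role with the highest mean RPKM. Alternatives were another pseudocount, no filter, protein-coding genes only, centring, no trend, no block, a 2-fold rule and each library left out.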

Additional observations from a re-analysis of the deposited data

How the results depend on the processing

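No member was called in any of the 10 alternative fits, with adjusted p from 0.904 upward in limma fits that kept all 4 libraries and from 0.242 (Tlr9 without the pair 1 Mettl3KO library) without one. The number of genes called, 5 as reported, was 1 with a pseudocount of 0.1 RPKM, 1 with each library centred on its median, 0 without the replicate block (78 genes at an unadjusted p under 0.05), and 42 among the 10027 protein-coding genes (17 higher and 25 lower). It ran from 1 to 118 when 1 library was left out (3 without the pair 1 Mettl3WT, 118 without the pair 1 Mettl3KO, 1 without the pair 2 Mettl3WT and 27 without the pair 2 Mettl3KO library). The block changed no call of a member. Fits without a library have no block and compare across pairs, and the cause of the differences was not tested. Without a library the fitted change ran from -1.35 to 1.07 for Tlr9 (0.76 without the pair 1 Mettl3WT and 1.07 without the pair 2 Mettl3KO library), from -0.29 to 0.46 for Unc93b1 (-0.29 and -0.07 without the same libraries), from -0.27 to 0.14 for Tlr13 (0.14 without the pair 1 Mettl3KO library) and from -1.02 to 0.079 for Tlr1 (0.079 without the pair 2 Mettl3KO library). Tlr2 (0.10 to 0.37), Tlr6 (-0.24 to -0.13), Cd180 (-0.73 to -0.26) and Tlr8 (0.20 to 0.38) kept their sign in all 4 of these fits. The surface median of fitted changes ran from -0.45 to -0.06 and the endosomal one from -0.046 to 0.23 without a library. Centring gave -0.0088 for the endosomal median and 0.23 for its pair 2 value. A 2-fold rule gave 0 members.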
